A study of Homo sapiens with 9 samples.

Results

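The insulin and IGF axis was followed here through 10 genes, IGF1, IGF2, IGF1R, INSR, IRS1, IRS2, IGFBP1, IGFBP2, IGFBP3 and IGFBP4, taken by gene name from 58735 gene entries measured by RNA sequencing. Of these 10 genes, 8 had enough reads to be tested, and IGF1 and IGFBP2 did not. There were 3 groups of Huh-7 human hepatoma cells with 3 libraries each: wild-type Huh-7 controls, Ako-3, a clone in which APOB was knocked out, and Mko-3, a clone in which MTTP was knocked out. APOB encodes the structural protein of very low density lipoproteins, and MTTP encodes a subunit of the transfer protein that loads it with lipid. Every group was grown in DMEM with 10% fetal bovine serum and then kept overnight without serum before RNA was taken, so that the axis was read in serum-starved cells. Each knockout was represented by 1 clone, so that the effect of a deleted gene and other properties of its clone cannot be told apart. The same 3 control libraries served both knockouts, and the labels describe the growth of Mko-3 cells in an entry separate from that of the other groups. The libraries are called biological replicates without a statement of what was kept separate, so the p-values measure the spread between these libraries.

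Insulin acts through the insulin receptor, and IGF1 and IGF2 act through the closely related IGF1 receptor. Both receptors phosphorylate the docking proteins IRS1 and IRS2, which recruit phosphoinositide 3-kinase, and the AKT kinase downstream keeps FOXO transcription factors out of the nucleus. IGF binding proteins carry IGFs outside the cell and govern their access to the receptor, and hepatocytes are a main source of circulating IGF1 and of several of these carriers.

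The libraries held 14638727 to 20179760 counts each. APOB transcripts were between 179 and 258 FPKM in Huh-7 libraries, between 83.6 and 94.6 in Ako-3 and between 208 and 227 in Mko-3, where FPKM is a level per kilobase of gene. MTTP was between 111 and 121 FPKM in Huh-7, between 99.3 and 110 in Ako-3 and between 15.3 and 16.6 in Mko-3, so each targeted transcript was lowest in its own knockout. All 10 hepatocyte markers examined were above 3 counts in every group, and their summed level was 4909 to 5077 FPKM in Huh-7, 5601 to 5841 in Ako-3 and 4823 to 5036 in Mko-3. Summed fibroblast markers stayed between 0.628 and 1.28 FPKM and endothelial markers between 7.33 and 14.6 FPKM, with KDR at 0 counts. Immune markers summed to between 150 and 203 FPKM, nearly all of it lysozyme (LYZ), and CD68 was at 0 counts throughout. The mitochondrial share of counts was 5.52 to 6.17% in Huh-7, 7.06 to 7.40% in Ako-3 and 5.75 to 5.82% in Mko-3, and its part in the results below was not tested.

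The 250 bases before the RefSeq transcription start (GRCh38.p14) are shown for IRS2, IRS1 and IGFBP4, because the differences of these genes from control cells were the largest among the members lowered in both clones. Searched on both strands were CAAAACA, the core of the insulin response element, GTAAACA, a FOXO core, and TGATGCA, the core of a composite ATF4 site. Capitals mark the only match, which is the reverse complement of CAAAACA. The IRS2 sequence is chr13:109786584-109786833 on the minus strand, the IRS1 sequence is chr2:226799821-226800070 on the minus strand and the IGFBP4 sequence is chr17:40443200-40443449 on the plus strand.
IRS2: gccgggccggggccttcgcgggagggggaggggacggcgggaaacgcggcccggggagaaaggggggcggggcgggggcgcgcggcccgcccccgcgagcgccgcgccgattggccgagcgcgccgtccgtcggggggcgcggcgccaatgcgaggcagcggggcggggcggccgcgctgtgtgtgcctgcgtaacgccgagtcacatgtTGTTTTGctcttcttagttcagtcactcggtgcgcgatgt
IRS1: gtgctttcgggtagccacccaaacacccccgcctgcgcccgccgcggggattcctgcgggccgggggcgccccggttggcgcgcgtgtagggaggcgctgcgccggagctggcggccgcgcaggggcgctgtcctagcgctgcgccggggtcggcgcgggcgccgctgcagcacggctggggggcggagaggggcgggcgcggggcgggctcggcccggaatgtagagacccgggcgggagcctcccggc
IGFBP4: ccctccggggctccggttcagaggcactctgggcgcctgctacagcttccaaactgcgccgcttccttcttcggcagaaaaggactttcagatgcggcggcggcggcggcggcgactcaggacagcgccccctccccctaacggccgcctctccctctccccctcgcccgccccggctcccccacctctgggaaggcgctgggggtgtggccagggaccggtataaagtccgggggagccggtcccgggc

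The IRS2 match lies 40 to 34 bases before the start. Over windows of 250 bases before and 50 after the start, CAAAACA was found in 4.92% of 35116 promoters, GTAAACA in 3.42% and TGATGCA in 2.63%. GC content was 76.4% in the IRS2 sequence, 80.8% in IRS1 and 71.6% in IGFBP4, against a median of 58% over all promoters, and the 3 sequences hold 42, 39 and 24 CpG pairs. Of the 10 genes, 8 were found in the promoter table and 2, IGF2 and IGFBP1, were not. Of the other 5 genes in the table, IGF1 had a single match, of GTAAACA, 247 to 241 bases before its start, and IGF1R, INSR, IGFBP2 and IGFBP3 had none.

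IGFBP1 was the most abundant transcript of the axis in every group, and INSR was the most abundant of the receptors and their substrates. In Huh-7 cells the mean level was 42.5 ± 4.88 FPKM for IGFBP1 (SD, n = 3, as for every mean below), 24.6 ± 1.91 for INSR, 18.5 ± 0.623 for IRS1, 11.8 ± 1.94 for IGFBP3 and 9.67 ± 2.40 for IGF2. Below these came IRS2 at 6.78 ± 0.161 FPKM, IGF1R at 6.02 ± 0.628 and IGFBP4 at 3.67 ± 0.683. Neighbours in this order had separate libraries in Huh-7 except IGFBP3 and IGF2, whose libraries overlapped. In Ako-3 cells the libraries of IRS1 and IGFBP3 overlapped, as did those of IGFBP3 and IGF2, and IRS2 came below IGF1R. In Mko-3 cells IGFBP3, at 19.3 ± 1.29 FPKM, overlapped INSR, at 19.9 ± 0.632, and stood above IRS1, so that IGFBP3 had moved from the fourth place to the third.

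**Figure D1:**
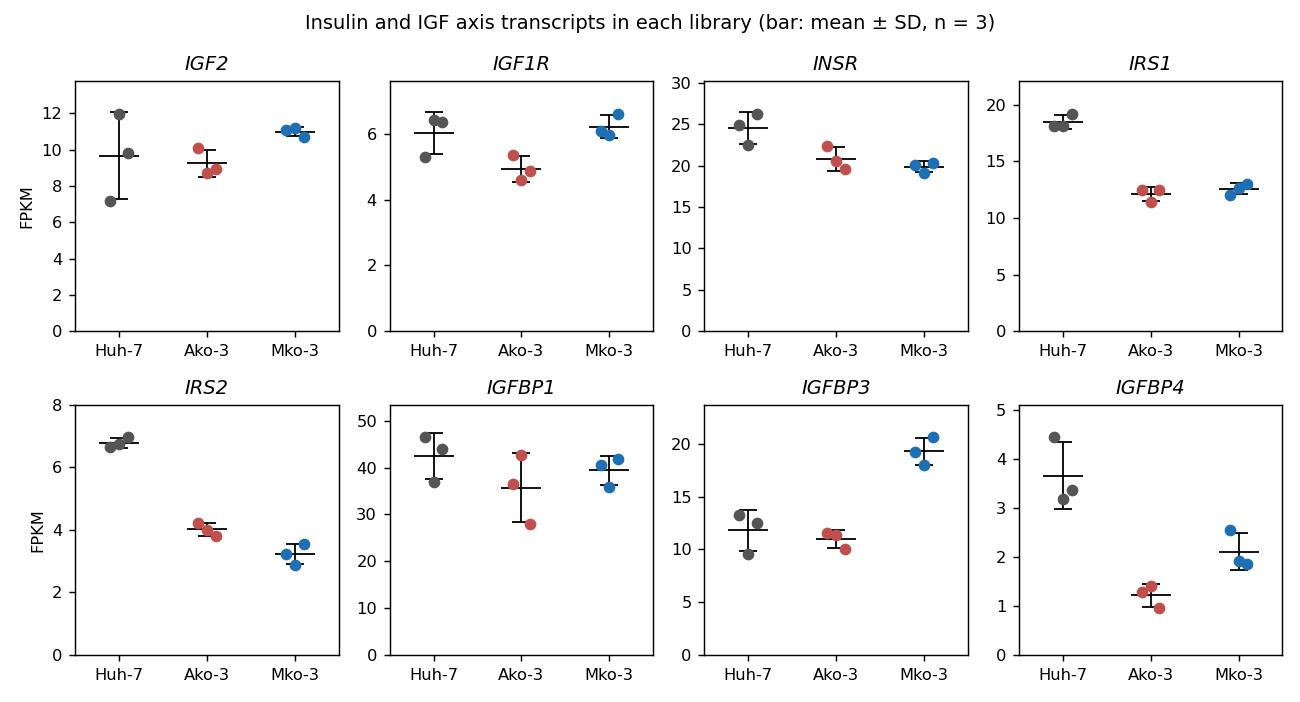
FPKM (vertical axes, each from 0) of the 8 tested genes in the 9 libraries, with points for libraries and bars for the mean ± SD of 3. IRS1, IRS2 and IGFBP4 are lower in every Ako-3 and Mko-3 library than in every Huh-7 library, and IGFBP3 is higher in Mko-3 alone, between 18.0 and 20.6.

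IGF1, the growth hormone-induced ligand, had 1, 0 and 0 counts in the Huh-7 libraries, 3, 1 and 0 in Ako-3 and 4, 3 and 0 in Mko-3. IGFBP2, a carrier abundant in fetal liver, had 3, 0 and 1 counts in Huh-7, 0, 0 and 2 in Ako-3 and 0, 0 and 2 in Mko-3. At this depth no difference of either gene between the groups was detectable. In the GENCODE release 44 annotation 82.48% of the exonic bases of IGF1 are shared with the antisense gene HELLPAR, which had 37 to 71 counts, and 44.43% of those of IGF2 are shared with other genes. Among the latter are INS-IGF2 and a second entry for IGF2, both with 0 counts in all 9 libraries. The libraries were not described as marking strand, and the handling of reads that fit more than 1 gene is not given in the sources used here. The levels of IGF1 and IGF2 are therefore uncertain. INS, the insulin gene, had 0 counts in all 9 libraries, against a floor of 3 counts per library.

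A gene was called where edgeR gave a log2 fold change of at least 1 in either direction together with an adjusted p (Benjamini-Hochberg, over all genes tested) no greater than 0.05. In Ako-3 against Huh-7, 1 of the 8 tested genes, IGFBP4, was called, against 8.52% of 15787 genes tested. In Mko-3 against Huh-7, 1 gene, IRS2, was called, against 11.0% of 15745. Of all genes called in Ako-3, 41.3% were higher, and 30.8% with library totals as the only scaling. Between the clones edgeR called none of the 8, against 5.73% of 15528 genes, DESeq2 also called 0, and 5 of the 8 had an unadjusted p under 0.05, as did 48.2% of all genes.

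With the adjusted p alone as the criterion, 5 of the 8 genes passed in Ako-3, against 49.9% of all genes tested, and all 5 were lower, where 24.4% of all genes were lower and 25.5% higher. In Mko-3, 5 passed, against 54.0%, of which 4 were lower and 1 was higher, where 27.1% of all genes were lower and 26.9% higher. In Mko-3 against Ako-3, 5 passed, against 41.6%, of which 4 were higher and 1 lower, where 21.1% were higher and 20.6% lower.

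Separation of the libraries was also counted, in FPKM. In Ako-3, 4 members had every library below every Huh-7 library and none had every library above, against 28.4% and 29.3% of all genes. In Mko-3, 4 were below and 1 above, against 29.8% and 30.9%. In Mko-3 against Ako-3, 4 were above and 1 below, against 26.2% and 23.6%. For the 8 genes the median log2 fold change was -0.27 in Ako-3 and -0.22 in Mko-3, beside -0.01 over all genes in each comparison, and 0.19 in Mko-3 against Ako-3. All 8 estimates were below 0 in Ako-3, and 5 of 8 in Mko-3, beside 50.7% and 51.0% of all genes. In Ako-3 the estimates of IGF2, IGFBP1 and IGFBP3 did not pass the test. In these bulk libraries a lower level in every cell and a smaller share of expressing cells cannot be told apart.

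**Figure D2:**
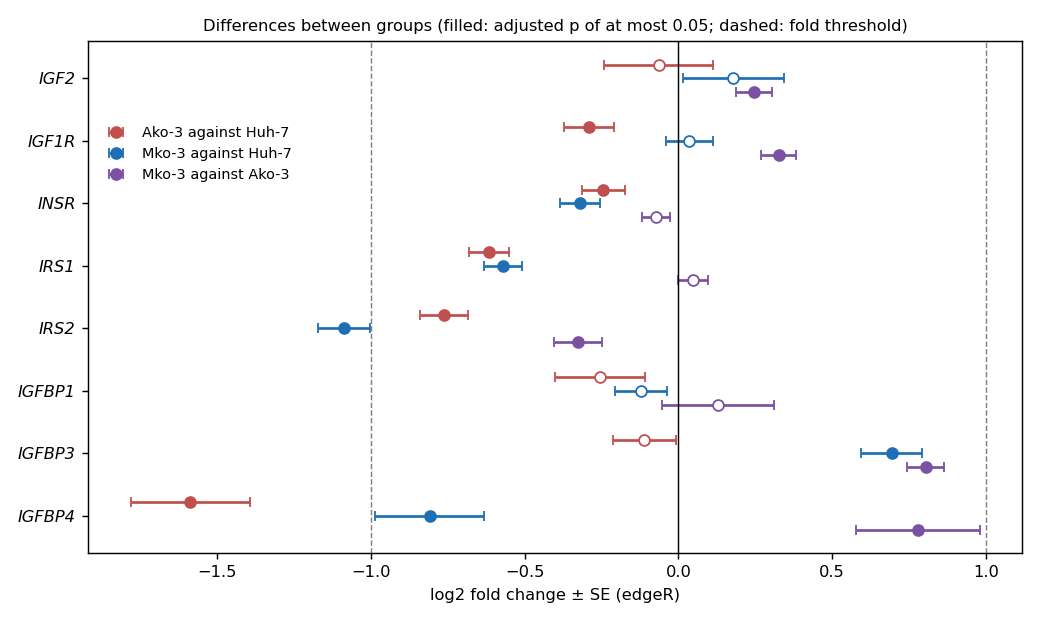
Log2 fold change ± SE (horizontal axis) of the 8 tested genes in the 3 comparisons, from edgeR fits of 6 libraries each, with filled points for an adjusted p of at most 0.05 and dashed lines at a log2 fold change of 1 in either direction. IRS1 and IRS2 lie below 0 against Huh-7 in both clones, IGFBP4 in Ako-3 lies at -1.59, and IGFBP3 lies above 0 in both comparisons of Mko-3.

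Of the ligands, only IGF2, the fetal growth factor, was measurable. IGF2 was 7.20, 12.0 and 9.82 FPKM in the Huh-7 libraries, 10.1, 8.70 and 8.93 in Ako-3 and 11.1, 11.2 and 10.7 in Mko-3. The control libraries spanned all the knockout libraries, and no difference from Huh-7 was detectable in Ako-3 (log2 fold change -0.06, SE 0.18, adjusted p = 0.791) or in Mko-3 (0.18, SE 0.16, adjusted p = 0.396, edgeR). Without the second Huh-7 library the Ako-3 estimate was 0.11. Mko-3 libraries lay above every Ako-3 library, with a log2 difference of 0.25 between the clones (SE 0.06, edgeR adjusted p = 0.000310). This is 1.19-fold.

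Among the receptors, INSR was lower in both clones and IGF1R was lower in Ako-3. INSR, the insulin receptor, was 24.9, 22.5 and 26.3 FPKM in Huh-7, 22.4, 20.5 and 19.5 in Ako-3 and 20.1, 19.2 and 20.4 in Mko-3. Every knockout library was below every control library in FPKM, though the first Ako-3 library came close to the second control. In CPM these libraries were nearly level, at 236.3 and 236.2, so that Ako-3 and Huh-7 overlapped. The log2 fold change was -0.24 in Ako-3 (SE 0.07, edgeR adjusted p = 0.00622) and -0.32 in Mko-3 (SE 0.06, adjusted p = 0.000282), that is, it fell by 15.6% in Ako-3 and fell by 19.8% in Mko-3. The clones did not differ detectably from each other in INSR (log2 difference -0.07, SE 0.04, edgeR adjusted p = 0.189).

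IGF1R, the receptor for both IGFs, was 5.30, 6.41 and 6.35 FPKM in Huh-7, 5.36, 4.59 and 4.86 in Ako-3 and 6.09, 5.96 and 6.61 in Mko-3. The first Huh-7 library was below the highest Ako-3 library, so these groups overlapped. The log2 fold change was -0.29 in Ako-3 (SE 0.08, edgeR adjusted p = 0.00589) and 0.04 in Mko-3 (SE 0.08, adjusted p = 0.724). The Mko-3 estimate turned negative, to -0.05, without the first Huh-7 library and to -0.03 with library totals as the only scaling. All Mko-3 libraries exceeded all Ako-3 libraries, with a log2 difference of 0.33 (SE 0.06, edgeR adjusted p = 1.7e-06).

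The 2 receptors thus stood in different proportion. The ratio of INSR to IGF1R in FPKM was 4.71, 3.51 and 4.14 in Huh-7, 4.17, 4.47 and 4.02 in Ako-3 and 3.30, 3.22 and 3.08 in Mko-3. Mko-3 libraries were below those of the other groups, while Huh-7 and Ako-3 overlapped. These ratios are given without a test, since an exact permutation test of 3 against 3 libraries cannot go below p = 0.1.

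The receptor substrates were lower in both clones, and IRS2 more so in Mko-3 than in Ako-3. IRS1, the docking protein best known from muscle and fat, was 18.1, 18.1 and 19.2 FPKM in Huh-7, 12.4, 11.4 and 12.5 in Ako-3 and 12.1, 12.6 and 13.0 in Mko-3. The knockout libraries overlapped each other, and all of them lay far below the controls. The log2 fold change was -0.61 in Ako-3 (SE 0.06, edgeR adjusted p = 1.4e-07) and -0.57 in Mko-3 (SE 0.06, adjusted p = 1.1e-07), so that it fell by 34.7% in Ako-3 and fell by 32.6% in Mko-3, short of the fold threshold. Between the clones the log2 difference was 0.05 (SE 0.05, edgeR adjusted p = 0.474).

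IRS2, the substrate prominent in hepatocytes, was 6.64, 6.75 and 6.96 FPKM in Huh-7, 4.23, 4.01 and 3.80 in Ako-3 and 3.24, 2.89 and 3.54 in Mko-3. The 3 groups did not overlap, with Huh-7 highest and Mko-3 lowest. IRS2 fell by 0.76 on the log2 scale in Ako-3 (SE 0.08, edgeR adjusted p = 9.6e-08) and by 1.09 in Mko-3 (SE 0.08, adjusted p = 9.1e-10), a 2.13-fold lower level that was called. With limma on log2(FPKM + 1) the Mko-3 estimate was -0.88, short of the fold threshold. The difference between the clones was -0.33 (SE 0.08, edgeR adjusted p = 0.000456).

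The ratio of IRS1 to IRS2 in FPKM was 2.73, 2.69 and 2.76 in Huh-7, 2.94, 2.84 and 3.29 in Ako-3 and 3.72, 4.36 and 3.68 in Mko-3. No 2 groups overlapped. The mean ratio was 2.72 ± 0.0360 in Huh-7, 3.02 ± 0.233 in Ako-3 and 3.92 ± 0.381 in Mko-3, so the substrate transcripts of the knockout cells held a larger part of IRS1.

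Of the IGF binding proteins, IGFBP4 was lower in both clones, IGFBP3 was higher in Mko-3, and no difference of IGFBP1 was detectable. IGFBP1, a carrier whose hepatic transcription insulin represses, was 46.5, 37.0 and 44.0 FPKM in Huh-7, 36.5, 42.8 and 28.0 in Ako-3 and 40.6, 35.9 and 41.8 in Mko-3. The 3 groups overlapped, and the Ako-3 libraries were the most spread. The log2 fold change was -0.25 in Ako-3 (SE 0.15, edgeR adjusted p = 0.184) and -0.12 in Mko-3 (SE 0.08, adjusted p = 0.228). Between the clones it was 0.13 (SE 0.18, edgeR adjusted p = 0.639), and -0.02 without the third Ako-3 library.

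IGFBP3, the main IGF carrier of serum, was 13.3, 9.60 and 12.5 FPKM in Huh-7, 11.5, 11.4 and 10.0 in Ako-3 and 19.2, 18.0 and 20.6 in Mko-3. Ako-3 lay within the range of the controls, and every Mko-3 library was above both other groups. IGFBP3 rose 1.62-fold in Mko-3 (log2 fold change 0.69, SE 0.10, edgeR adjusted p = 1.7e-05), under the fold threshold, and was -0.11 in Ako-3 (SE 0.10, adjusted p = 0.397). The clones differed by 0.80 on the log2 scale (SE 0.06, edgeR adjusted p = 1.3e-19).

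IGFBP4, a carrier that restrains IGF action until it is cleaved, was 4.45, 3.19 and 3.37 FPKM in Huh-7, 1.29, 1.41 and 0.964 in Ako-3 and 2.55, 1.92 and 1.86 in Mko-3. The groups did not overlap, with Ako-3 lowest and Mko-3 between. These levels rest on 107 to 184 counts in Huh-7, 37 to 62 in Ako-3 and 63 to 100 in Mko-3. IGFBP4 was 3.00-fold lower in Ako-3 (log2 fold change -1.59, SE 0.19, edgeR adjusted p = 1.0e-06), which was called, and 1.75-fold lower in Mko-3 (-0.81, SE 0.18, adjusted p = 0.000602). The clones differed by 0.78 (SE 0.20, edgeR adjusted p = 0.00105), with Mko-3 the higher.

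The makeup of the binding protein transcripts differed accordingly. Of the summed FPKM of IGFBP1 to IGFBP4, IGFBP1 made up 73.4 ± 0.985% in Huh-7, 74.2 ± 2.59% in Ako-3 and 64.8 ± 0.447% in Mko-3. IGFBP3 made up 20.3 ± 0.893% in Huh-7, 23.2 ± 2.60% in Ako-3 and 31.7 ± 0.792% in Mko-3, where each library held more than any library of the other groups. IGFBP4 made up 6.32 ± 0.656% in Huh-7, 2.54 ± 0.0732% in Ako-3 and 3.47 ± 0.598% in Mko-3. The summed level was 58.0 ± 7.38, 48.0 ± 8.35 and 60.9 ± 4.42 FPKM in the 3 groups, with overlapping libraries.

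**Figure D3:**
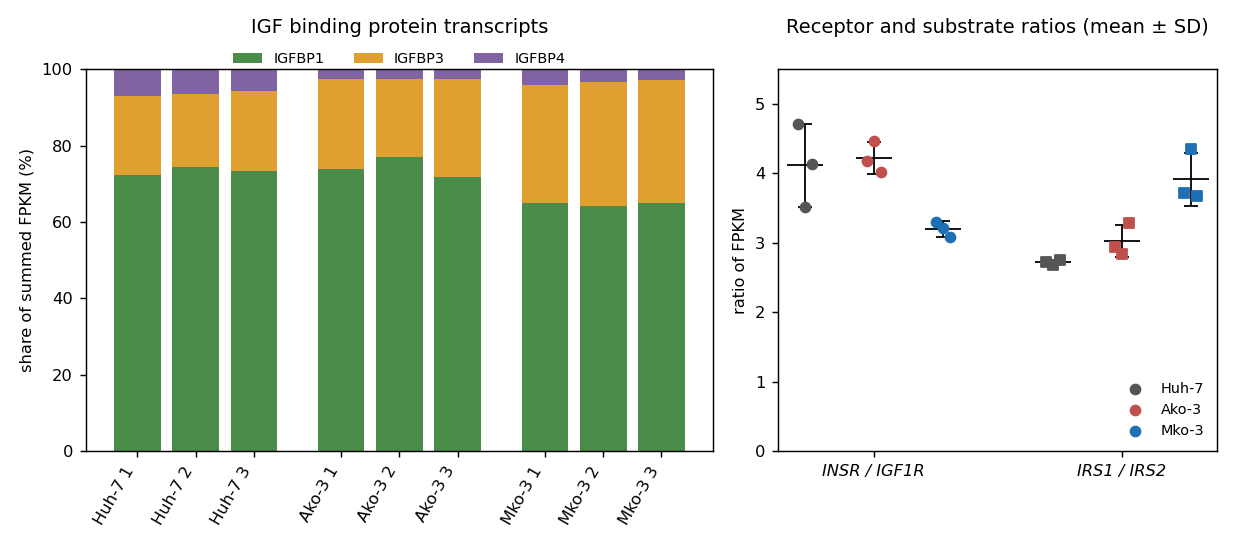
Left, share (%) of IGFBP1, IGFBP3 and IGFBP4 in the summed FPKM of IGFBP1 to IGFBP4 in each library, with IGFBP2 too low to be seen. Right, ratio of INSR to IGF1R and of IRS1 to IRS2 in FPKM, with points for libraries and bars for the mean ± SD of 3. The IGFBP3 share is 30.8 to 32.3% in Mko-3 and at most 25.7% elsewhere, and the IRS1 to IRS2 ratio is 2.69 to 2.76 in Huh-7 and 3.68 to 4.36 in Mko-3.

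The members lie apart in the genome (hg38, positions of the deposited files), except IGFBP1 and IGFBP3. IRS1 is at chr2:226731317-226799759, IRS2 at chr13:109752698-109786568, INSR at chr19:7112255-7294034, IGF1R at chr15:98648539-98964530 and IGF2 at chr11:2129112-2149603. IGFBP1 is at chr7:45888357-45893668 and IGFBP3 beside it at chr7:45912245-45921874, on opposite strands. IGFBP4 is at chr17:40443461-40457731.

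Genes within 1 Mb of a member were examined for a shared difference. All 7 tested neighbours of IRS1 were lower in Ako-3 than in Huh-7, with a median log2 fold change of -0.59 beside -0.61 for IRS1 itself. In Mko-3, 4 of these 7 were lower, and their median was -0.13 beside -0.57 for IRS1. Of the 4 tested neighbours of IRS2, 2 were lower in each clone, and their median was 0.23 in Ako-3 and 0.30 in Mko-3. Of the neighbours of IGFBP4, 28 were tested in Ako-3, with a median of -0.02, and 30 in Mko-3, with a median of -0.0037. The 6 tested neighbours of IGFBP3, IGFBP1 among them, had a median of -0.22 in Mko-3, where IGFBP3 was higher.

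Of 15 further binding proteins, regulators and proteases, 10 were tested in Ako-3, of which 1 was called lower and none higher, where 5.00% of all genes were called lower and 3.52% higher. In Mko-3, 11 were tested, of which 3 were called higher and 3 lower, where 3.82% of all genes were called higher and 7.22% lower. Between the clones 3 of 11 were called higher in Mko-3 and 1 lower, where 2.26% of all genes were called higher and 3.47% lower, and none was called where at least 10 counts were required in every library. That setting drops a gene before the test, STC1 among them, which had 6 to 18 counts in Ako-3. Over the tested partners the log2 fold changes had a median of -0.38 in Ako-3 and -0.09 in Mko-3. The stanniocalcins, secreted inhibitors of the pappalysin that cleaves IGFBP4, moved unlike each other. STC1 was 0.192, 0.174 and 0.146 FPKM in Huh-7, 0.102, 0.218 and 0.0829 in Ako-3 and 1.28, 0.871 and 0.955 in Mko-3, from 11 to 15, 6 to 18 and 61 to 95 counts. Every Mko-3 library was thus far above the rest, a 5.99-fold rise over Huh-7 (log2 fold change 2.58, SE 0.28, edgeR adjusted p = 1.0e-07).

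STC2 was 8.90, 6.96 and 8.80 FPKM in Huh-7, 3.31, 3.92 and 2.55 in Ako-3 and 4.91, 4.73 and 5.31 in Mko-3. It fell by 1.34 on the log2 scale in Ako-3 (SE 0.14, edgeR adjusted p = 7.8e-06) and by 0.74 in Mko-3 (SE 0.09, adjusted p = 9.7e-07), and only the former passed the fold threshold. IGFBP7, a binding protein of low affinity for IGFs, fell by 1.36 in Mko-3 (SE 0.18, edgeR adjusted p = 1.8e-06) and by 0.52 in Ako-3 (adjusted p = 0.0287). Its Ako-3 libraries, at 3.84, 2.91 and 1.96 FPKM, overlapped those of Huh-7, at 3.80 to 4.63. Between the clones IGFBP7 was at -0.84 and not called, but was called without the third Ako-3 library (-1.05). HTRA1, a secreted protease that can cleave IGF binding proteins, fell by 1.18 in Mko-3 (SE 0.18, edgeR adjusted p = 8.1e-06) and by 0.71 in Ako-3 (adjusted p = 0.00173), and no difference between the clones passed the test (adjusted p = 0.0538). The other 3 called in Mko-3, named after their values were seen, were the pappalysins PAPPA (log2 fold change 1.07) and PAPPA2 (-1.01) and the metalloprotease ADAM28 (1.14). None of these 3 was called without the third Huh-7 library (0.94, -0.84 and 0.90). PAPPA was also not called without the second Huh-7 library (0.86), PAPPA2 without the third Mko-3 library (-0.65), and ADAM28 without the first Huh-7, the first Mko-3 or the third Mko-3 library (1.00 to 1.25). DESeq2 called neither PAPPA nor ADAM28. PAPPA was not called with library totals as the only scaling, nor PAPPA2 and ADAM28 with no filter or with 1 fit of 9 libraries. The limma fits called none of the 3.

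IGF2R, the receptor that clears IGF2 and has no kinase, was 23.6, 24.8 and 26.7 FPKM in Huh-7, 34.7, 32.2 and 34.0 in Ako-3 and 36.7, 36.2 and 37.3 in Mko-3. It was higher in every knockout library, by 0.42 in Ako-3 (SE 0.06, edgeR adjusted p = 1.2e-05) and by 0.54 in Mko-3 (SE 0.06, adjusted p = 1.4e-07) on the log2 scale, short of the fold threshold. IGFBP5 had 0 counts in all 9 libraries, IGFBP6 was between 0.896 and 1.97 FPKM with overlapping groups, and IGFALS, the third partner of the serum IGFBP3 complex, had 1 to 10 counts.

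Inside the cell, of 27 receptor adaptors and inhibitors, 24 were tested. In Ako-3 edgeR called none, DESeq2 also called 0, and 17 had an unadjusted p under 0.05, against 55.5% of all genes. In Mko-3, 2 were called, both lower, where 7.22% of all genes were called lower. These were SOCS3, an inhibitor of cytokine and insulin receptor signalling (log2 fold change -1.19, SE 0.11, edgeR adjusted p = 1.9e-08), and SH2B2, an adaptor of the insulin receptor (-1.18, SE 0.17, adjusted p = 5.0e-06). In Ako-3 both were also lower, at -0.83 for SOCS3 and -0.94 for SH2B2, and SH2B2 was called there without the second Huh-7 library (-1.07) or the third Ako-3 library (-1.02). The median of the list was -0.21 in Ako-3 and -0.17 in Mko-3.

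Of 36 genes of the PI3K, AKT and mTOR core, 32 were tested, with a median log2 fold change of 0.04 in Ako-3 and 0.01 in Mko-3. PIK3CD, a catalytic subunit of the kinase best known from leukocytes, was the 1 gene called in Ako-3, and was lower there (-1.17, SE 0.12, edgeR adjusted p = 1.7e-07), where 5.00% of all genes were called lower. In Mko-3, PIK3CD (2.01-fold lower, SE 0.12 on the log2 scale, edgeR adjusted p = 6.5e-07) and PIK3IP1, an inhibitor of the kinase (log2 fold change -1.01, SE 0.09, adjusted p = 5.9e-09), lay at the threshold itself, and these were the 2 genes called there, against 7.22% of all genes called lower. DESeq2 and the fits with median-of-ratios factors or with no filter called neither. PIK3CD was not called without the first Huh-7, the second Mko-3 or the third Mko-3 library (-0.90 to -0.99), nor PIK3IP1 without the first Huh-7, the third Huh-7 or the third Mko-3 library (-0.98 to -0.99). No gene of these lists was called between the clones by edgeR or DESeq2, while 13 of 24 and 18 of 32 had an unadjusted p under 0.05, against 48.2% of all genes.

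Of 24 FOXO factors and genes known as FOXO targets, 22 were tested. In Ako-3, 4 were called lower and none higher, where 5.00% of all genes were called lower and 3.52% higher. Of the 22 estimates 16 were below 0, with a median of -0.42, beside 50.7% of all genes. In Mko-3, 7 were called lower and none higher, where 7.22% of all genes were called lower and 3.82% higher. There 19 of 22 estimates were below 0, with a median of -0.59, beside 51.0% of all genes. The tested factors themselves were lower. FOXO1 fell by 0.51 in Ako-3 (SE 0.10, edgeR adjusted p = 0.000327) and by 0.56 in Mko-3 (SE 0.10, adjusted p = 8.4e-05). FOXO3 fell by 0.60 and 0.82 (edgeR adjusted p = 6.1e-06 and 1.6e-08). FOXO4, named after its values were seen, fell by 0.60 in Ako-3 (SE 0.14, edgeR adjusted p = 0.00146). In Mko-3 it fell by 1.43 (SE 0.15, edgeR adjusted p = 1.0e-07) and was called, but not with limma on log2(FPKM + 1) (-0.98).

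GADD45A, a growth arrest gene, was 50.2, 41.1 and 44.3 FPKM in Huh-7, 17.2, 18.7 and 18.1 in Ako-3 and 21.7, 19.1 and 18.3 in Mko-3, so that both knockouts stood well below the controls. The transcriptional repressor BCL6 fell by 1.10 in Ako-3 (SE 0.08, edgeR adjusted p = 1.6e-09) and by 1.32 in Mko-3 (SE 0.08, adjusted p = 4.7e-11). PDK4, the kinase that shuts off pyruvate oxidation, was called in Ako-3 (-1.09, SE 0.21, edgeR adjusted p = 0.000180), but not without the third Huh-7 library, where it was at -0.96, and was at -0.79 in Mko-3 (adjusted p = 0.00229). TXNIP, an inhibitor of glucose uptake, was called in Mko-3 (-1.23, SE 0.07, edgeR adjusted p = 4.8e-12), and at -0.91 in Ako-3 (adjusted p = 8.6e-10) it was called with library totals as the only scaling.

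KLF15, a factor of fasting metabolism, was 16.8, 18.5 and 17.5 FPKM in Huh-7, 11.9, 11.4 and 11.9 in Ako-3 and 5.16, 5.53 and 4.22 in Mko-3. Its 3 groups did not overlap, and it fell by 0.59 in Ako-3 (SE 0.08, edgeR adjusted p = 2.9e-06) and by 1.83 in Mko-3 (SE 0.10, adjusted p = 4.2e-12). The gluconeogenic genes PPARGC1A and PCK1 were chosen after their values were seen. They were at -1.44 and -0.14 in Ako-3 and at -3.08 and -2.03 in Mko-3. PPARGC1A rests on few counts, with a mean of 2.02 CPM in Huh-7, 0.757 in Ako-3 and 0.232 in Mko-3. Its SE was 0.33 in Ako-3 and 0.45 in Mko-3. The limma fits did not call PPARGC1A in Ako-3 (-0.75 on log2(FPKM + 0.1) and -0.15 on log2(FPKM + 1)). In Mko-3 the fit on log2(FPKM + 1) did not call it (-0.21). G6PC1, the final gluconeogenic enzyme, was at 0.61 in Ako-3 and -0.39 in Mko-3.

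**Figure D4:**
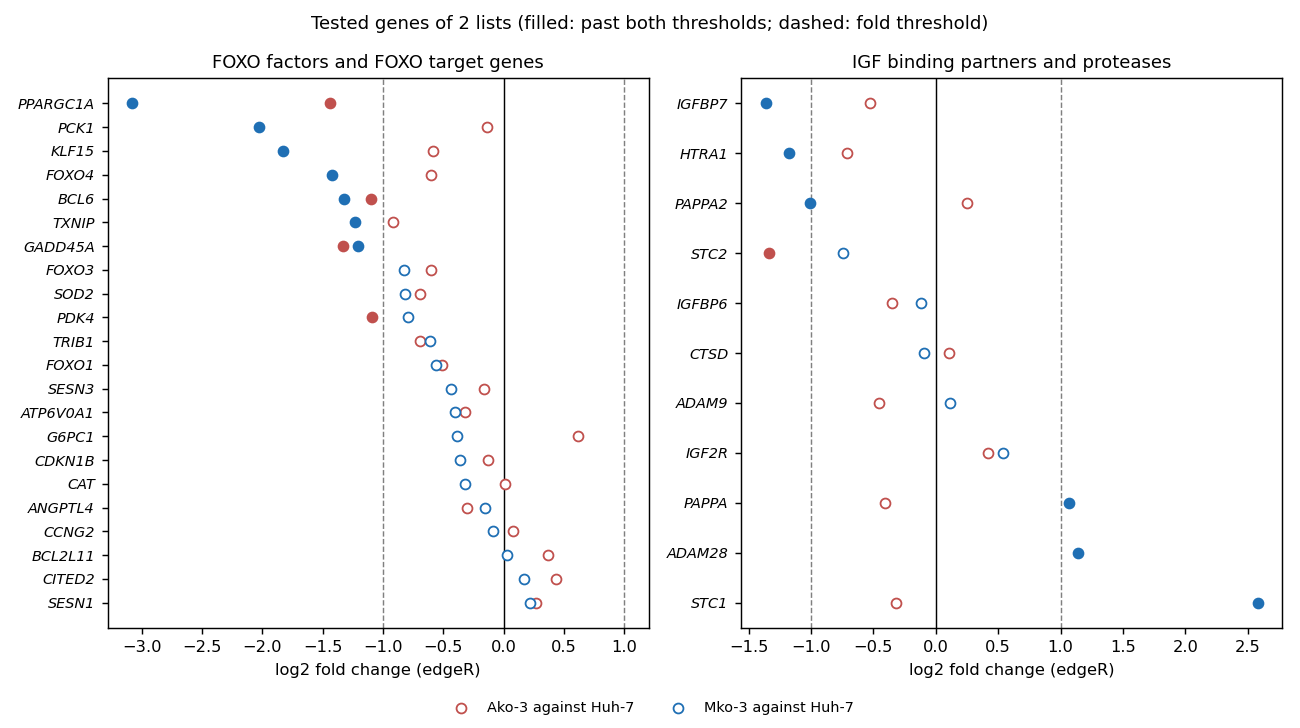
Log2 fold changes against Huh-7 (horizontal axes) of the tested FOXO factors and FOXO target genes (left) and of the tested IGF binding partners and proteases (right), with filled points for called genes and dashed lines at a log2 fold change of 1 in either direction. On the left, 19 of 22 Mko-3 and 16 of 22 Ako-3 points lie below 0, and on the right STC1 in Mko-3 lies at 2.58.

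Genes that insulin induces in liver were tested at 11 of 14. In Ako-3 edgeR and DESeq2 called none, 8 had an unadjusted p under 0.05, against 55.5% of all genes, and the median was 0.18. In Mko-3, 2 were called, both lower, where 7.22% of all genes were called lower, and the median was -0.34. MLXIPL, the carbohydrate-responsive factor, was 14.2, 12.0 and 13.6 FPKM in Huh-7, 8.41, 9.05 and 8.20 in Ako-3 and 3.26, 3.34 and 2.56 in Mko-3. PKLR, the liver pyruvate kinase, was 9.89, 7.73 and 9.04 FPKM in Huh-7, 11.5, 11.9 and 11.9 in Ako-3 and 3.84, 3.81 and 3.42 in Mko-3. MLXIPL was thus lower in both clones, by 0.64 and 2.13 on the log2 scale, while PKLR was above the controls in Ako-3 (0.39) and below them in Mko-3 (-1.28, all 4 with an edgeR adjusted p of 0.00130 or less).

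Growth hormone signalling, the main drive of hepatic IGF1, was tested at 9 of 10 genes. In Ako-3 edgeR and DESeq2 called none, and 2 had an unadjusted p under 0.05, against 55.5% of all genes. In Mko-3, 2 were called, both lower, where 7.22% of all genes were called lower. The growth hormone receptor GHR was at -2.08 (SE 0.35, edgeR adjusted p = 3.2e-05) and its feedback inhibitor SOCS2 at -1.20 (SE 0.25, adjusted p = 0.000338), the latter not called without the first Huh-7 library (-0.91). GHR rests on 38 to 60 counts in Huh-7, 45 to 64 in Ako-3 and 4 to 15 in Mko-3, so every Mko-3 library was below all others.

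Around IGF2 itself, 7 of 12 genes were tested, these being the IGF2 messenger binding proteins and the IGF2 and H19 locus, and 1 was called lower in each clone, where 5.00% of all genes were called lower in Ako-3 and 7.22% in Mko-3. IGF2BP1 was higher by 0.46 in Ako-3 (SE 0.06, edgeR adjusted p = 7.2e-06) and by 0.44 in Mko-3 (SE 0.06, adjusted p = 6.2e-06), and IGF2BP3 by 0.53 and 0.47, all under the fold threshold. IGF2-AS, antisense to IGF2 and not told apart from it on shared bases without strand, was at -1.09 in Mko-3 (SE 0.24, edgeR adjusted p = 0.000663), from 52 to 86 counts in Huh-7 and 21 to 37 in Mko-3. It was not called without the first Huh-7 library (-0.92) or the third Mko-3 library (-0.93). The imprinted gene PHLDA2 was called lower in Ako-3 (-1.49, SE 0.52, edgeR adjusted p = 0.0220) from 9 to 16 counts in Huh-7 and 2 to 7 in Ako-3, and neither DESeq2 (-1.52) nor the fits without the first Huh-7, the first Ako-3 or the third Ako-3 library called it (-1.17 to -1.49). In Mko-3 it was at 0.94 (SE 0.36, edgeR adjusted p = 0.0339), and was called without the first Huh-7 or the first Mko-3 library (1.14 and 1.06).

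The genes most like IRS2 and IGFBP4, the called members, were found by Pearson's r of log2 CPM (counts scaled to library size) over the 9 libraries, which share 3 groups. For IRS2 these were KIAA1958 (r = 0.992), the cytochrome P450 CYP4F12 (0.991) and the transcription factor HLF (0.986), of 10352 genes compared, 539 of which had an r over 0.9. HLF was 54.2 CPM in Huh-7, 34.3 in Ako-3 and 27.4 in Mko-3, the order of IRS2. For IGFBP4 they included the transporter ABCC3 (0.988) and HPCAL1 (0.987), of 10353, with 369 over 0.9. ABCC3 was 75.6 CPM in Huh-7, 42.0 in Ako-3 and 55.3 in Mko-3, the order of IGFBP4.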

How the data were processed

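Poly(A) RNA of 9 Huh-7, Ako-3 and Mko-3 libraries was sequenced. To make the raw counts, the authors aligned paired reads to hg38 with HISAT2 2.0.5 and counted them per gene with featureCounts 1.5.0-p3, and the counts were deposited without normalization. The deposited FPKM values are, from the numbers themselves, counts per gene length, scaled by a factor proportional to the DESeq2 size factor over all 9 libraries. Labels gave the groups.

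The counts of the 6 libraries of each comparison were tested with edgeR 4.0.16 in R 4.3.3 (TMM, filterByExpr with min.count set to 10, quasi-likelihood F test with the robust option), with p adjusted over all genes. The SE is the log2 fold change divided by the square root of F. The scripts were tested on simulated data. No fold is given for a group in which every library had 3 counts or fewer, the floor. Totals of 14638727 to 20179760 counts limit the precision of genes with few counts. FPKM, CPM and ratios were described without tests. Alternatives were DESeq2 1.42.0, limma 3.58.1 on log2(FPKM + 0.1) or log2(FPKM + 1), other scalings and filters, 1 fit of 9 libraries, a replicate block and leaving out each library.

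Members and lists were chosen with earlier results of these data known. Named were all members, APOB and MTTP, family genes by level, up to 3 genes per list with the smallest adjusted p among those called against Huh-7, and the 3 genes most like each called member. One gene that this rule names is not reported here. Promoters are RefSeq GRCh38.p14. Protein sequences were not used here.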

Additional observations from a re-analysis of the deposited data

Results flagged for a closer look

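The following differ between the knockout clones by the edgeR test of Mko-3 against Ako-3, that is, by a test of the difference itself. Both clones were compared with the same Huh-7 libraries, so each clone's own values are given side by side.

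Of the members, IGFBP3 differed by 0.80 on the log2 scale (adjusted p = 1.3e-19), at 0.69 in Mko-3 and -0.11 in Ako-3 against Huh-7, and was higher in 3 of 3 Mko-3 libraries than in any Ako-3 library. IGFBP4 differed by 0.78 (adjusted p = 0.00105), at -0.81 in Mko-3 and -1.59 in Ako-3.

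Of the genes around the axis, STC1 differed by 2.89, at 2.58 in Mko-3 and -0.32 in Ako-3, from 61 to 95 against 6 to 18 counts. KLF15 differed by -1.24, at -1.83 and -0.59. MLXIPL differed by -1.49, at -2.13 and -0.64. PKLR differed by -1.67, at -1.28 and 0.39, so that it lay on opposite sides of the controls. GHR differed by -2.26, at -2.08 and 0.18, and rests on 4 to 15 counts in Mko-3. PHLDA2 differed by 2.43, at 0.94 and -1.49, and rests on 2 to 29 counts in the clones.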

How the results depend on the processing

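Both calls among the members, IGFBP4 in Ako-3 and IRS2 in Mko-3, were kept whichever single library was left out, and the number of members called was then 1, 1 and 0 in the 3 comparisons. With limma on log2(FPKM + 1) IRS2 in Mko-3 was at -0.88, so that 0 members were called there. A pseudocount of 1 shrinks genes of low level by construction, and STC1 in Mko-3 was then at 0.79. IGF1R in Mko-3 was at -0.033 with library totals only. Without 1 library, estimates that changed sign were IGF2 in Ako-3 (-0.24 to 0.11), IGF1R in Mko-3 (-0.047 to 0.092) and IGFBP1 between the clones (-0.020 to 0.29), none of which had passed the test. Of the remaining comparisons, 453 under the other settings and 326 with a library left out kept the call and direction of a gene, a count within 1.5 times or an untested value within 1 SD.

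Called numbers over all genes were 1345, 1739 and 890 in Ako-3, in Mko-3 and between the clones, 7880, 8509 and 6462 with the adjusted p alone, 841, 1113 and 511 with at least 10 counts in every library, and 317, 429 and 200 with limma on log2(FPKM + 1). With the adjusted p alone 5 members passed in each comparison, and in the same order the numbers were 5, 8 and 9 for binding partners and proteases, 16, 16 and 12 for adaptors and inhibitors, 17, 17 and 16 for the PI3K, AKT and mTOR core, 16, 17 and 15 for FOXO genes, 7, 8 and 11 for insulin-induced genes, 2, 6 and 6 for growth hormone signalling and 5 and 5 for the IGF2 group against Huh-7.

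In Ako-3, binding partners numbered 2 with 1 fit of 9 libraries, adaptors 1 with library totals, the PI3K core 2 with library totals or no filter and 0 with limma on log2(FPKM + 1), FOXO genes 2 with limma on log2(FPKM + 0.1), with or without a filter, and 1 on log2(FPKM + 1), and the IGF2 group 2 with no filter and 0 with DESeq2, 10 counts in every library or limma on log2(FPKM + 1). In Mko-3, binding partners numbered 3 with 10 counts in every library or limma on log2(FPKM + 0.1), with or without a filter, and 0 on log2(FPKM + 1), and adaptors 1 there. The PI3K core numbered 1 with DESeq2 or no filter, neither PIK3CD nor PIK3IP1, and 0 with median-of-ratios factors, each limma fit or 1 fit of 9 libraries. Growth hormone signalling numbered 1 with 10 counts in every library or limma on log2(FPKM + 0.1), with or without a filter, and 0 on log2(FPKM + 1), and the IGF2 group 0 in each limma fit. Between the clones, binding partners numbered 0 with 10 counts in every library, 1 with limma on log2(FPKM + 0.1), with or without a filter, and 0 on log2(FPKM + 1). The PI3K core numbered 1 with no filter, FOXO genes 2 in each limma fit, and growth hormone signalling and the IGF2 group 0 with 10 counts in every library or limma on log2(FPKM + 1). The setting with 10 counts in every library drops genes before the test. Between the clones STC1, GHR and PHLDA2 were among these, so they could not be called there.

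Without 1 library, counts that moved by over 1.5 times were, in Ako-3, adaptors (0 to 1, without the second Huh-7 or the third Ako-3 library), the PI3K core (1 to 2, without the first Ako-3 library) and the IGF2 group (0 to 1, without the first Huh-7, the first Ako-3 or the third Ako-3 library). In Mko-3 they were binding partners (3 to 6, without the third Huh-7 library), the PI3K core (0 to 2, without the first Huh-7, the third Huh-7 or the third Mko-3 library), growth hormone signalling (1 to 3, without the first Huh-7 library) and the IGF2 group (0 to 2, without the first Mko-3 or the third Mko-3 library). Smaller moves were 3 to 5 and 7 to 8 for FOXO genes in Ako-3 and Mko-3, and 3 to 5 for binding partners and 3 to 4 for FOXO genes between the clones. Causes were not tested, other than the constructions named above.

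No pairing of the libraries by replicate number was detectable: same-numbered deviations correlated at -0.20 to -0.13 in Ako-3 and Huh-7, at -0.08 to 0.17 in Mko-3 and Huh-7 and at -0.06 to 0.15 between the clones, and not every library correlated best with its own number. The deviations are from the mean of 3 libraries, so these correlations depend on each other and cannot exclude a pairing. With the replicate number as a block, 1336, 1730 and 899 genes were called, the member calls did not change (IGFBP4 at -1.58, IRS2 at -1.09), and the PI3K core in Mko-3 numbered 1. Depth limits IGF1 and IGFBP2, which could not be tested. It also limits IGFBP4, STC1, GHR, PHLDA2, PPARGC1A, PAPPA, PAPPA2 and ADAM28, which rest on few counts. The mean in Huh-7 and Mko-3 was 0.726 and 1.60 CPM for PAPPA, 2.56 and 1.28 for PAPPA2 and 0.426 and 0.962 for ADAM28.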

Other observations

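H19, the noncoding RNA beside IGF2, had 1, 1 and 29 counts in the Ako-3 libraries, 4, 2 and 3 in Huh-7 and 9, 5 and 2 in Mko-3, so that a single Ako-3 library stood apart. It is named after its values were seen. In the same library IGF2 was 8.93 FPKM, between the other 2 Ako-3 libraries.

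The genes around IGF2 within 1 Mb had a median log2 fold change of -0.34 over 23 tested in Ako-3, 13 of them lower, and of -0.21 over 22 tested in Mko-3, 15 of them lower. In each comparison 4 were called lower and none higher, where 5.00% of all genes were called lower in Ako-3 and 7.22% in Mko-3. IGF2 itself was at -0.06 and 0.18. Among the called neighbours were PHLDA2 in Ako-3 and IGF2-AS in Mko-3, and several of the other fits did not keep these calls. IGF2-AS also shares bases with IGF2.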
